A study of Drosophila melanogaster with 12 samples.

Results

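The genes described here are 8 genes of antioxidant defence in *Drosophila melanogaster*, taken by their names from a table of 17707 genes, in which all 8 were found. They are the superoxide dismutase genes *Sod1*, *Sod2* and *Sod3*, the catalase gene *Cat*, the genes *Gclc* and *Gclm* of glutamate-cysteine ligase, and the regulators *cnc* and *Keap1*. Newly emerged flies had been kept in flasks on a normal sucrose, corn and yeast medium or on the same medium with 1 mol/L erythritol, a sugar alcohol that is lethal to the fly when eaten. The control groups CK72h and CK96h and the erythritol groups T72h and T96h were collected after 72 h and 96 h on these media, and each replicate was a pool of whole flies. By the survival curves of the study, more erythritol-fed flies had died by 96 h than by 72 h, and control flies died later. Deaths of erythritol-fed flies had begun before 72 h. In T72h and T96h, a selection of surviving flies cannot be told apart from the effect of feeding, or in T96h of longer feeding. The labels name no strain, genotype or sex, and the study calls the 3 samples of each group biological replicates, so that there were 12 libraries of polyA RNA in 4 groups. In RNA of whole pooled flies, fewer cells of a type and less RNA per cell cannot be told apart.

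Superoxide dismutases turn superoxide into hydrogen peroxide, and catalase turns hydrogen peroxide into water and oxygen. Glutamate-cysteine ligase makes the rate-limiting step in the synthesis of glutathione, the main soluble thiol of the cell, and is built from a catalytic subunit (Gclc) and a modifier subunit (Gclm). The transcription factor Cap'n'collar (*cnc*), whose long protein form CncC is the fly counterpart of mammalian Nrf2, turns on genes of glutathione synthesis and detoxification through antioxidant response elements. Keap1 binds CncC in unstressed cells and hands it to a Cul3 ubiquitin ligase, so that much of the control of CncC acts on the protein, which RNA levels do not show.

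The libraries held 19855575 to 23327826 counts, and all 8 genes passed the filter on low counts, as did 13179 genes in all. The share of counts on the mitochondrial genome was 9.22% ± 1.20 for CK72h and 8.86% ± 1.38 for CK96h, against 12.3% ± 3.98 for T72h and 10.4% ± 1.11 for T96h (SD, n = 3), and T72h replicate 3 stood highest at 16.5%. Among the erythritol calls of the 8 genes, leaving this library out changed only that of *Sod1* at 72 h. Levels below are CPM, the count of a gene per 1000000 counts, on library sizes scaled by the trimmed mean of M-values (TMM), and means are given with SD over 3 libraries. A gene was called up-regulated or down-regulated at an adjusted p under 0.05 in edgeR's quasi-likelihood test with Benjamini-Hochberg adjustment over all 13179 genes, and SE is the standard error of the log2 fold change (log2FC). With the library totals in place of TMM, the median log2FC of all genes moved from -0.05 to -0.30 in T72h vs. CK72h and from -0.02 to 0.04 in T96h vs. CK96h.

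Erythritol was accompanied by higher RNA levels of *Cat*, *Gclc*, *Gclm* and *cnc* at both times, by lower levels of *Sod3* at both times, and by a level of *Sod2* that was higher at 72 h and lower at 96 h. In T72h vs. CK72h, 5 of the 8 genes were up-regulated (*Cat*, *Gclc*, *Gclm*, *cnc* and *Sod2*), 2 were down-regulated (*Sod3* and *Sod1*) and *Keap1* did not pass, beside 79.3% of all genes tested that were called in either direction, 37.3% up and 42.1% down. In T96h vs. CK96h, 5 were up-regulated (*Cat*, *Gclc*, *Gclm*, *cnc* and *Keap1*), 2 were down-regulated (*Sod3* and *Sod2*) and *Sod1* did not pass, beside 79.5% of all genes called, 38.3% up and 41.2% down. With so many genes called, the shares of the 8 genes called were near those of all genes, and the sizes and directions of the changes are therefore given gene by gene. None of the 8 genes also met the fold criterion of the study (|log2FC| ≥ 1.5), which 12.9% of all genes met at 72 h (3.98% up, 8.92% down) and 11.1% at 96 h (3.97% up, 7.15% down). The median log2FC of the 8 genes was 0.55 at 72 h and 0.30 at 96 h, against -0.05 and -0.02 over all genes tested. The 3 erythritol libraries did not overlap with the 3 control libraries for any of the 8 genes at either time, which was also the case for 79.7% of all genes at 72 h and 80.8% at 96 h.

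**Figure D1:**
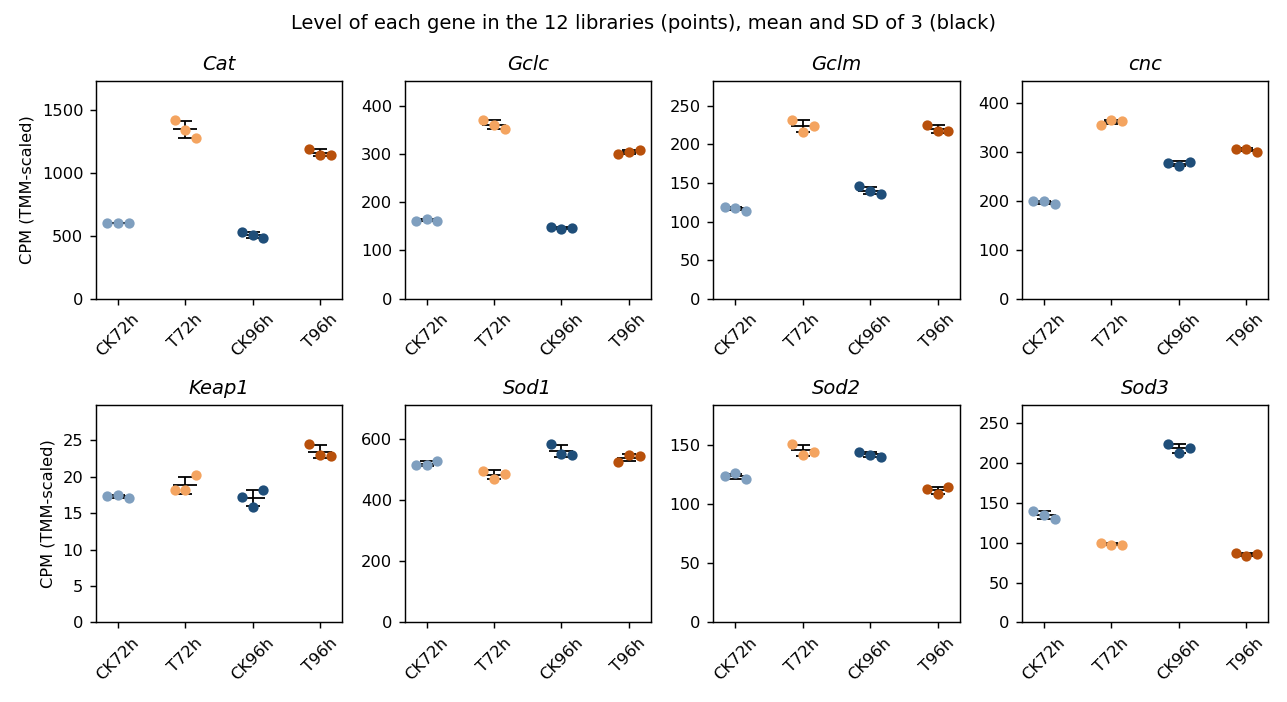
Level of each of the 8 genes in CPM on TMM-scaled library sizes (vertical axes, each from 0) in the 4 groups. Colored points are the 3 libraries of a group, and black marks are the mean and SD. The erythritol libraries of *Cat*, *Gclc* and *Gclm* lie above all control libraries, those of *Sod3* lie below all of them, and *cnc* was lowest in CK72h and highest in T72h.

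The regulator gene *cnc* (FBgn0262975, chromosome 3R, 23185580 to 23226711, minus strand, fly genome release 6) was up-regulated at both times, by far more at 72 h than at 96 h. Its level was 199, 198 and 193 CPM in the 3 libraries of CK72h and 355, 364 and 362 in T72h. It was 276, 270.3 and 279 in CK96h and 306, 305 and 300.03 in T96h. The groups did not overlap at either time, but the gap between them was wide at 72 h and narrow at 96 h, since the control level was higher and the erythritol level lower at the later time. *cnc* was 1.83-fold higher with erythritol at 72 h (log2FC 0.87, SE 0.0342, adjusted p = 1.29e-17) and 1.10-fold higher at 96 h (log2FC 0.14, SE 0.0339, adjusted p = 0.000531). The effect was thus smaller at 96 h by 0.73 on the log2 scale, and this difference of the effects, 96 h minus 72 h, passed its own test (-0.73, SE 0.0481, adjusted p = 8.70e-13). In control flies *cnc* was higher at 96 h than at 72 h (log2FC 0.48, SE 0.0343, adjusted p = 3.03e-12), and in erythritol-fed flies it was lower at 96 h than at 72 h (-0.25, SE 0.0337, adjusted p = 9.61e-07).

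The *cnc* values cover all transcripts of the gene, so that the long form CncC and the shorter forms, which are known for their part in patterning the head of the embryo, were not told apart. The annotated exons of *cnc* overlap those of *Irk1*, a potassium channel gene on the opposite strand, and no source used here states that reads were counted by strand. *Irk1* stood at 84.6 ± 4.38 CPM in CK72h, 80.0 ± 2.49 in T72h, 91.9 ± 2.27 in CK96h and 60.4 ± 0.799 in T96h. With erythritol its log2FC was -0.08 at 72 h (adjusted p = 0.0827) and -0.61 at 96 h (adjusted p = 2.11e-12), where those of *cnc* were positive. Over time, however, *Irk1* moved in the same directions as *cnc*, up in the controls (0.12, adjusted p = 0.00999) and down with erythritol (-0.41, adjusted p = 1.71e-08). The testis gene *fzo* lies inside an intron of *cnc* on the same strand and stood at 23.2 ± 1.74, 9.75 ± 0.811, 8.04 ± 0.687 and 17.6 ± 0.736 CPM in CK72h, T72h, CK96h and T96h.

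*Keap1* (FBgn0038475, chromosome 3R, 17073942 to 17079945, minus strand) encodes the protein that holds CncC in check, and it had the lowest level of the 8 genes, with 314 to 523 counts per library. Its level was 17.4, 17.5 and 17.1 CPM in CK72h and 18.1, 18.2 and 20.2 in T72h. It was 17.2, 15.9 and 18.1 in CK96h and 24.5, 23.0 and 22.8 in T96h. The T96h libraries stood above all others, while the other 3 groups lay close together. The log2FC was 0.46 at 96 h (SE 0.0678, adjusted p = 1.27e-06), a fold change of 1.37. At 72 h it was 0.12 (SE 0.0690, adjusted p = 0.119), which missed the threshold, and its direction turned with the scaling (-0.14 with library totals and -0.01 with upper-quartile factors). *Keap1* passed at 72 h with DESeq2's size factors in edgeR (0.15, adjusted p = 0.0473) and with only the 6 libraries compared (0.16, adjusted p = 0.0473). The effect at 96 h exceeded that at 72 h by 0.34 (SE 0.0968, adjusted p = 0.00284).

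*Gclc* (FBgn0040319, chromosome X, 8102181 to 8116147, minus strand), which encodes the catalytic subunit of glutamate-cysteine ligase, was up-regulated by similar amounts at both times. Its level was 161, 165 and 162 CPM in CK72h and 369, 360.3 and 352 in T72h. It was 148, 143 and 146 in CK96h and 300.1, 304 and 309 in T96h. Every erythritol library lay above every control library of either time. The fold change was 2.22 at 72 h (log2FC 1.15, SE 0.0347, adjusted p = 4.95e-20) and 2.09 at 96 h (log2FC 1.06, SE 0.0351, adjusted p = 3.14e-19). The difference between the effects was -0.09 (SE 0.0490, adjusted p = 0.114) and did not pass. That difference ranged from -0.12 to 0.23 over the alternative settings and passed under 4 of them, in opposite directions.

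*Gclm* (FBgn0046114, chromosome 3R, 22685006 to 22686510, minus strand), which encodes the modifier subunit, was up-regulated at both times. Its level was 119, 118 and 114 CPM in CK72h and 231, 216 and 224 in T72h. It was 145, 139 and 136 in CK96h and 225, 217 and 218 in T96h. The erythritol libraries of both times lay within one range above the control libraries, and the control level was higher in CK96h than in CK72h. The fold change was 1.91 at 72 h (log2FC 0.93, SE 0.0382, adjusted p = 2.85e-17) and 1.57 at 96 h (log2FC 0.65, SE 0.0379, adjusted p = 4.00e-14). The effect at 96 h was smaller by 0.28 on the log2 scale (difference -0.28, SE 0.0536, adjusted p = 3.95e-05). This difference was lost with upper-quartile factors (-0.08, adjusted p = 0.147) and turned to 0.03 with library totals (adjusted p = 0.720).

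*Cat* (FBgn0000261, chromosome 3L, 18822604 to 18828188, plus strand), the gene of the peroxisomal catalase, showed the highest log2FC of the 8 genes at both times, at 72 h within the SE of *Gclc*. Its level was 602, 605 and 604 CPM in CK72h and 1419, 1344 and 1279.7 in T72h. It was 527, 510.5 and 485 in CK96h and 1192, 1144 and 1143 in T96h. The lowest erythritol library stood well above the highest control library, and the 3 CK72h libraries lay within a few CPM of each other. The fold change was 2.23 at 72 h (log2FC 1.16, SE 0.0435, adjusted p = 5.05e-18) and 2.29 at 96 h (log2FC 1.19, SE 0.0437, adjusted p = 2.82e-18). At 72 h 93.5% of all genes tested had a lower log2FC than *Cat*, and at 96 h 88.3% had. Over the alternative settings the log2FC ranged from 0.90 to 1.25 at 72 h and from 1.16 to 1.30 at 96 h. The difference between the effects was 0.03 (SE 0.0609, adjusted p = 0.622) and did not pass, although it did with upper-quartile factors (0.23, adjusted p = 0.00107) and with library totals (0.35, adjusted p = 0.000182).

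The 3 superoxide dismutase genes differed from each other. *Sod1* (FBgn0003462, chromosome 3L, 11112281 to 11113740, minus strand) encodes the copper and zinc enzyme of the cytosol, and its level moved least. It was 514, 516 and 528 CPM in CK72h and 495, 468 and 486 in T72h. It was 583, 551 and 548 in CK96h and 526, 547 and 543 in T96h. The erythritol libraries lay just below the control libraries of the same time. The log2FC was -0.10 at 72 h (SE 0.0384, adjusted p = 0.0160) and -0.06 at 96 h (SE 0.0384, adjusted p = 0.164). The call at 72 h was lost without CK72h replicate 3 (-0.09, adjusted p = 0.0688), without T72h replicate 2 (-0.08, adjusted p = 0.112) and without T72h replicate 3 (-0.06, adjusted p = 0.173), with DESeq2's size factors in edgeR (-0.07), with DESeq2 (-0.07, adjusted p = 0.0669), and with only the 6 libraries compared (-0.06, adjusted p = 0.137). The direction at 96 h turned with upper-quartile factors (0.01) and without T72h replicate 3 (0.05).

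*Sod2* (FBgn0010213, chromosome 2R, 16772785 to 16773915, minus strand) encodes the manganese enzyme of the mitochondrial matrix. Its level was 124, 126 and 122 CPM in CK72h and 151, 142 and 144 in T72h. It was 145, 142 and 140.3 in CK96h and 113, 109 and 115 in T96h. The erythritol libraries thus stood above the controls at 72 h and below them at 96 h. The log2FC was 0.23 at 72 h (SE 0.0364, adjusted p = 2.57e-06), a direction that turned with library totals (-0.02, adjusted p = 0.697), and -0.35 at 96 h (SE 0.0369, adjusted p = 5.15e-09), from -0.36 to -0.24 over the alternative settings. The difference between the effects passed its own test (-0.58, SE 0.0518, adjusted p = 2.88e-10), and with library totals it was -0.27 (adjusted p = 0.00117).

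*Sod3* (FBgn0033631, chromosome 2R, 11380347 to 11384114, minus strand) encodes the extracellular superoxide dismutase and was the most strongly down-regulated of the 8 genes. Its level was 140.1, 135 and 130.5 CPM in CK72h and 100.3, 97.7 and 97.4 in T72h. It was 224, 213 and 219 in CK96h and 87.1, 84.1 and 85.4 in T96h. The 6 erythritol libraries lay below the 6 control libraries, and the control level was higher at 96 h than at 72 h. *Sod3* was 1.37-fold lower in T72h than in CK72h (log2FC -0.46, SE 0.0374, adjusted p = 3.70e-11) and 2.56-fold lower in T96h than in CK96h (log2FC -1.36, SE 0.0374, adjusted p = 7.87e-21). The effects differed by -0.90 (SE 0.0528, adjusted p = 9.27e-14). Most of that difference lay in the controls, where the log2FC of CK96h vs. CK72h was 0.69 (SE 0.0358, adjusted p = 6.68e-15), against -0.20 (SE 0.0389, adjusted p = 9.01e-05) for T96h vs. T72h.

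**Figure D2:**
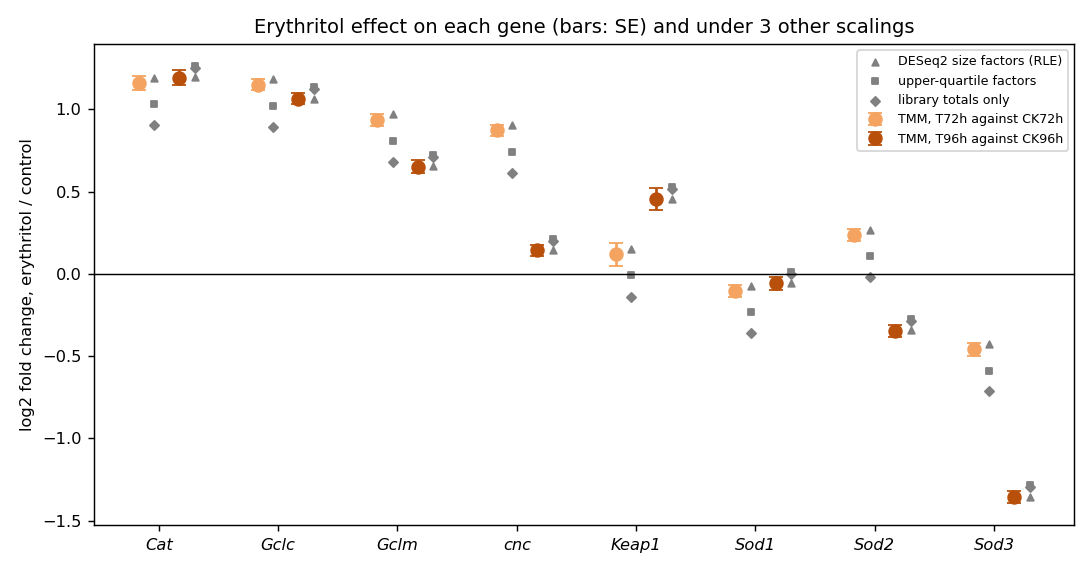
Log2FC of erythritol-fed against control flies (vertical axis) for the 8 genes. Large points with SE bars are the edgeR estimates on TMM factors at 72 h (light) and 96 h (dark), and gray symbols beside them give 3 other scalings. *Cat*, *Gclc*, *Gclm* and *cnc* stay above 0 and *Sod3* below 0 under all 4 scalings, while *Keap1* and *Sod2* at 72 h and *Sod1* at 96 h have estimates on both sides of 0.

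The summed level of the 8 genes was 1869 to 1881 CPM in CK72h and 2964 to 3139 in T72h. It was 1972 to 2065 in CK96h and 2733 to 2773 in T96h, so that no erythritol library reached down to the control libraries. Most of this sum was *Cat* and *Sod1*. Of the 8 differences between the effects at 96 h and 72 h, 4 passed as lower (*Sod3*, *cnc*, *Sod2* and *Gclm*) and 1 as higher (*Keap1*), beside 78.9% of all genes tested, 47.8% lower and 31.1% higher. The median difference of the 8 genes was -0.18, against -0.22 over all genes tested, and the latter moved to 0.09 with library totals.

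The levels also moved with time within each diet. In CK96h vs. CK72h, 5 of the 8 genes were higher (*Sod3*, *cnc*, *Gclm*, *Sod2* and *Sod1*) and 2 lower (*Cat* and *Gclc*), beside 82.3% of all genes called, 47.2% up and 35.1% down. *Cat*, at -0.25 (adjusted p = 1.16e-05), and *Gclc*, at -0.16 (adjusted p = 0.000249), were thus lower in the older control flies, and *Keap1* did not pass (-0.02, adjusted p = 0.801). The increase of *Sod1* over time in controls (0.11, adjusted p = 0.0107) turned to -0.08 with library totals and -0.06 with upper-quartile factors, was lost with DESeq2's size factors (0.06, adjusted p = 0.143), and was 0.00775 without T72h replicate 3 (adjusted p = 0.839). In T96h vs. T72h, 5 genes were lower (*Sod2*, *cnc*, *Gclc*, *Cat* and *Sod3*) and 2 higher (*Keap1* and *Sod1*), beside 53% of all genes called, 26.3% up and 26.8% down. Among these, *Sod2* at -0.38 (SE 0.0369, adjusted p = 3.00e-09) and *Keap1* at 0.32 (SE 0.0672, adjusted p = 0.000280) moved farthest, and *Gclm* at -0.02 (adjusted p = 0.625) did not pass, although it passed as lower with DESeq2's size factors (-0.10, adjusted p = 0.0228) and with DESeq2 (-0.10, adjusted p = 0.0272). The call of *Sod1* was lost under both of these, and those of *Cat* and *Sod3* with library totals. None of the 8 genes met the fold criterion in either comparison over time, which 5.62% of all genes met in CK96h vs. CK72h and 1.4% in T96h vs. T72h, and 7 of the 8 genes had libraries that did not overlap in each of them, beside 83.3% and 57.2% of all genes. Each group of libraries enters more than one of these comparisons, so that they are not independent of each other.

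Levels of different genes were compared per kilobase of annotated exon. In CK72h the order was *Sod1* (707 ± 9.92 CPM per kb), *Cat* (303 ± 0.578), *Sod2* (122 ± 2.25), *Gclm* (77.7 ± 1.61), *Sod3* (67.1 ± 2.38), *Gclc* (36.9 ± 0.515), *cnc* (21.4 ± 0.357) and *Keap1* (5.03 ± 0.0623), with no overlap between neighbours within their SD. In CK96h *Sod3* (108 ± 2.82) stood above *Gclm* (93.1 ± 3.29), and *Gclc* (33.1 ± 0.472) came close to *cnc* (30.0 ± 0.496). In T72h *Cat* (676 ± 35.0) and *Sod1* (657 ± 18.9) did not differ beyond their spread at the head of the order, and neither did *Gclm* (149 ± 5.12) and *Sod2* (143 ± 4.79) behind them. In T96h *Sod1* (733 ± 15.4) again stood above *Cat* (582 ± 14.0), *Gclm* (146 ± 3.06) above *Sod2* (110.2 ± 3.06), and *Gclc* (69.2 ± 0.968) above *Sod3* (42.4 ± 0.747). *cnc* and *Keap1* held the last places in all 4 groups. The exon length joins all annotated transcripts of a gene, which lowers the value per kb of *cnc* in particular.

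Ratios of 2 genes within a library need no scaling between libraries, and they are given per kb as a description. The ratio of *Cat* to *Sod1* was 0.432, 0.432 and 0.422 in CK72h and 1.06, 1.06 and 0.972 in T72h. It was 0.333, 0.342 and 0.327 in CK96h and 0.836, 0.772 and 0.776 in T96h. The peroxide-removing enzyme thus had more RNA relative to the superoxide-removing enzyme in every erythritol library than in any control library. The ratio of *Keap1* to *cnc* was 0.235 ± 0.00213 in CK72h and 0.139 ± 0.00835 in T72h, but 0.165 ± 0.00805 in CK96h and 0.206 ± 0.00653 in T96h (SD, n = 3). It was lower with erythritol at 72 h and higher with erythritol at 96 h, without overlap at either time.

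The ratio of *Gclm* to *Gclc* was 2.10 ± 0.0523 in CK72h, 1.81 ± 0.0558 in T72h, 2.81 ± 0.0851 in CK96h and 2.11 ± 0.0710 in T96h. RNA of the modifier subunit therefore rose less than that of the catalytic subunit at both times. The ratio was higher in CK96h than in CK72h. That in T96h was close to that in CK72h, but these 2 groups differ in both diet and time. The ratio of *Sod2* to *Sod1* was 0.174, 0.177 and 0.167 in CK72h and 0.221, 0.219 and 0.215 in T72h. It was 0.180, 0.186 and 0.185 in CK96h and 0.155, 0.144 and 0.153 in T96h. RNA of the mitochondrial enzyme was higher relative to that of the cytosolic one in T72h and lower in T96h than in the control libraries of the same time. This contrast between 72 h and 96 h needs no scaling.

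**Figure D3:**
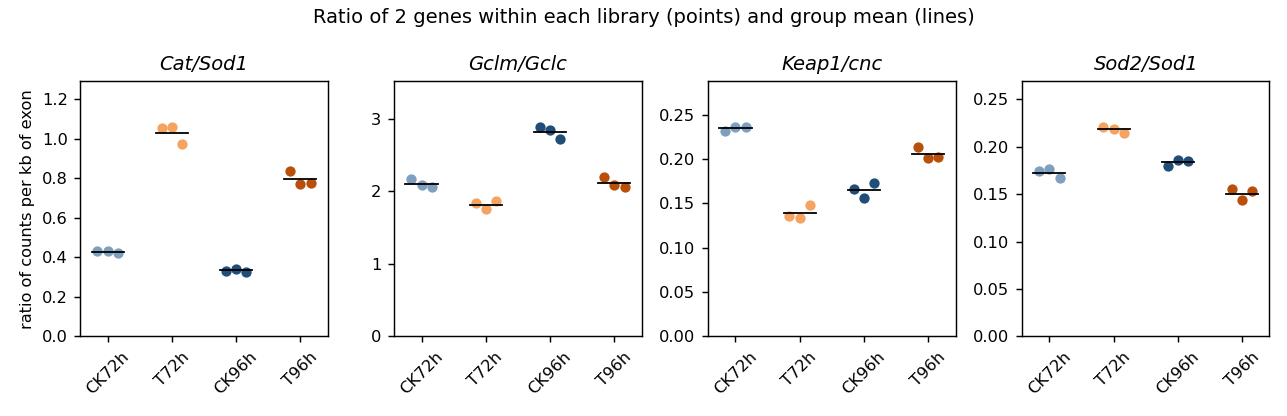
Ratio of counts per kb of exon (vertical axes, each from 0) for 4 pairs of genes within each library. Points are libraries and lines are group means of 3. *Cat*/*Sod1* was higher with erythritol at both times, *Gclm*/*Gclc* was lower at both times, and *Keap1*/*cnc* and *Sod2*/*Sod1* changed in opposite directions at 72 h and 96 h.

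Genes that act with the 8 were counted from lists. Beside the counts below, 37.3% of all genes tested were up-regulated and 42.1% down-regulated at 72 h. At 96 h these shares were 38.3% and 41.2%. Counts near such shares are no result about a list. All lists were chosen with earlier results of these data known, so that counts far from these shares are no test of a list. Of 15 genes known as targets of CncC, chiefly glutathione S-transferases, cytochromes P450 and epoxide hydrolases, 14 were up-regulated and none down-regulated at 72 h, with *GstD4* not passing (1.03, adjusted p = 0.0557), and all 15 were up-regulated at 96 h. Their median log2FC was 1.55 at 72 h and 1.76 at 96 h, and 8 and 9 of them also passed the fold criterion, against 3.98% and 3.97% of all genes upwards. *GstD1*, a common reporter of CncC activity, stood at 418 ± 10.5 CPM in CK72h, 1102 ± 10.0 in T72h, 537 ± 43.1 in CK96h and 1444 ± 25.1 in T96h. Its log2FC was 1.40 (SE 0.0474, adjusted p = 5.75e-19) at 72 h and 1.43 (SE 0.0472, adjusted p = 3.38e-19) at 96 h. With TMM the difference between these effects did not pass (0.03, SE 0.0658, adjusted p = 0.692), whereas that of *cnc* did. For *GstD1* this difference was not examined under other scalings. Over the alternative settings the log2FC of *GstD1* ranged from 1.14 to 1.46 at 72 h and from 1.36 to 1.54 at 96 h. *GstE1*, with the smallest adjusted p of the list, went from 33.5 ± 0.965 to 369 ± 8.55 CPM at 72 h (log2FC 3.46) and from 42.2 ± 1.14 to 459 ± 3.31 at 96 h (3.44). The near-identical copies *Cyp12d1-p* and *Cyp12d1-d* in this list may share reads and are uncertain one by one.

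Of the 5 genes that act with Cnc and Keap1, 4 passed as higher and 1 as lower at 72 h, with a median of 0.29. At 96 h 2 of them passed as higher and 2 as lower, with a median of 0.04. *ref(2)P*, the fly p62, an autophagy receptor that can bind Keap1, went from 414 ± 7.77 to 931 ± 24.0 CPM at 72 h (log2FC 1.17, adjusted p = 2.02e-19) and from 384 ± 5.22 to 929 ± 15.1 at 96 h (1.27, adjusted p = 3.75e-20). *maf-S*, the small Maf partner with which Cnc binds DNA, was higher at 72 h (0.36, adjusted p = 2.45e-07) and did not pass at 96 h (0.04, adjusted p = 0.477). *Cul3*, the scaffold of the ligase that Keap1 recruits, was lower at 72 h (-0.33, adjusted p = 2.44e-08) and higher at 96 h (0.66, adjusted p = 3.77e-14). Its level was 220 ± 9.57 CPM in CK72h, 175 ± 2.04 in T72h, 149 ± 4.16 in CK96h and 236 ± 5.86 in T96h. The 12 testis and sperm markers described below had the same directions at both times. Their part in the values of *Cul3* was not tested.

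All 5 genes of NADPH supply, which feeds the reduction of glutathione and thioredoxin, were up-regulated at both times, with medians of 1.36 at 72 h and 1.20 at 96 h. *Men*, the malic enzyme gene with the highest level of the list, went from 606 ± 0.290 to 1651 ± 49.6 CPM at 72 h (log2FC 1.45, adjusted p = 5.21e-21) and from 606 ± 13.7 to 1404 ± 11.2 at 96 h (1.21, adjusted p = 2.13e-19). *Men-b*, a mitochondrial malic enzyme, had log2FC values of 1.56 and 1.30. *Zw*, the glucose-6-phosphate dehydrogenase of the pentose phosphate pathway, had 1.36 and 1.20.

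Of 5 other genes of glutathione metabolism, 4 passed as higher and 1 as lower at 72 h, against 3 as higher and 2 as lower at 96 h, with medians of 0.67 and 0.35. *Cth*, which makes cysteine from cystathionine, was up-regulated at 72 h (0.88, adjusted p = 2.56e-16) and less at 96 h (0.35, adjusted p = 1.16e-08). *Ggt-1*, a gamma-glutamyl transpeptidase that breaks down glutathione outside the cell, was down-regulated at 72 h (-0.46, adjusted p = 1.70e-11) and at 96 h (-0.69, adjusted p = 3.86e-15). The glutathione synthetases *Gss1* and *Gss2* are near-identical copies whose reads may be shared, with log2FC values of 0.96 and 0.67 at 72 h and 0.83 and 1.30 at 96 h.

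Of 9 peroxidase genes, 8 were tested and *Prx5* was listed at 0 in all 12 libraries. Among the 8 tested, 4 were up-regulated and 2 down-regulated at 72 h, against 4 and 4 at 96 h, with medians of 0.56 and 0.24. *Prx2*, a cytosolic peroxiredoxin, went from 341 ± 5.15 to 804 ± 2.64 CPM at 72 h (log2FC 1.24, adjusted p = 2.20e-19) and from 504 ± 25.4 to 781 ± 13.1 at 96 h (0.63, adjusted p = 1.69e-13). *Prx6c* had log2FC values of 2.89 and 2.92, but it may share reads with its copy *Prx6b* (2.84 and 2.86). The counts of the lists for peroxidases and for partners of Cnc and Keap1 depended on the scaling at 72 h, since with library totals or upper-quartile factors 4 peroxidases were lower, and with library totals 1 of the partners was higher and 2 were lower.

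Of 11 genes of the thioredoxin system, 7 were up-regulated and 4 down-regulated at each time, with medians of 0.14 and 0.24. *MsrA*, which repairs oxidized methionine, was up-regulated at 72 h (1.51, adjusted p = 1.91e-19) and at 96 h (1.43, adjusted p = 2.33e-19). *dhd*, the thioredoxin of the female germline, had the highest level of the list and went from 828 ± 8.48 to 606 ± 16.4 CPM at 72 h and from 1963 ± 164 to 674 ± 24.2 at 96 h (log2FC values -0.45 and -1.54). Beside *dhd*, 4 of 7 female germline markers were lower and 1 was higher (*grk*, 0.80) at 72 h. At 96 h 5 were lower and 2 higher, among the latter *exu* (0.32). Of all genes tested, 42.1% were lower at 72 h and 41.2% at 96 h. Summed levels of the 7 markers were 1021 to 1041 CPM in CK72h, 546 to 553 in T72h, 1072 to 1084 in CK96h and 683 to 695 in T96h. A large part of these sums was *exu*. It stood at 541 ± 8.57 CPM in CK72h, 224 ± 1.11 in T72h, 321 ± 7.54 in CK96h and 400 ± 3.71 in T96h. The order of the sums was therefore not that of every marker. The part of these markers in the values of *dhd* was not tested.

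Of 5 relatives of superoxide dismutase and catalase, 2 were up-regulated and 2 down-regulated at 72 h, of the latter only 1 with DESeq2, with limma-voom, with a minimum of 1 CPM in 3 libraries, with only the 6 libraries compared, without CK72h replicate 1 and without T72h replicate 2. At 96 h 4 were up-regulated and none down-regulated, and the medians were 0.32 and 0.74. *Irc*, the extracellular immune-regulated catalase, went from 72.1 ± 1.81 to 213 ± 4.32 CPM at 72 h (log2FC 1.56, adjusted p = 1.96e-22) and from 120.4 ± 2.80 to 229 ± 0.758 at 96 h (0.93, adjusted p = 5.41e-18). *CatB*, a second catalase gene, was down-regulated at 72 h (-1.11, adjusted p = 4.87e-19) and up-regulated at 96 h (1.43, adjusted p = 3.46e-21), unlike *Cat*. The same directions were seen in the testis and sperm markers, of which 12 of 12 were lower at 72 h and 12 of 12 higher at 96 h, none of them at 0, with summed levels of 5282 to 5349 CPM in CK72h, 2589 to 2691 in T72h, 2054 to 2102 in CK96h and 5515 to 5603 in T96h. *TrxT*, *Trxr2*, *Grx1t* and *DJ-1alpha* had log2FC values of -1.07, -1.14, -0.86 and -1.19 at 72 h and 1.28, 1.05, 1.29 and 0.89 at 96 h. The part of the testis markers in these values was not tested.

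Of 7 other genes of the response to oxidative stress, 5 were up-regulated and 1 down-regulated at 72 h, against 5 and 2 at 96 h, with medians of 0.60 and 0.53. *Sesn*, the fly sestrin, had log2FC values of 0.97 (adjusted p = 1.13e-18) and 0.55 (adjusted p = 8.56e-14). *Pink1*, a kinase of mitochondrial quality control, had 0.67 (adjusted p = 4.95e-15) and 0.35 (adjusted p = 1.60e-09). *moody*, which is known as a receptor gene of the blood-brain barrier and not as an antioxidant gene, also stands in this list (0.65 and 0.67).

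**Figure D4:**
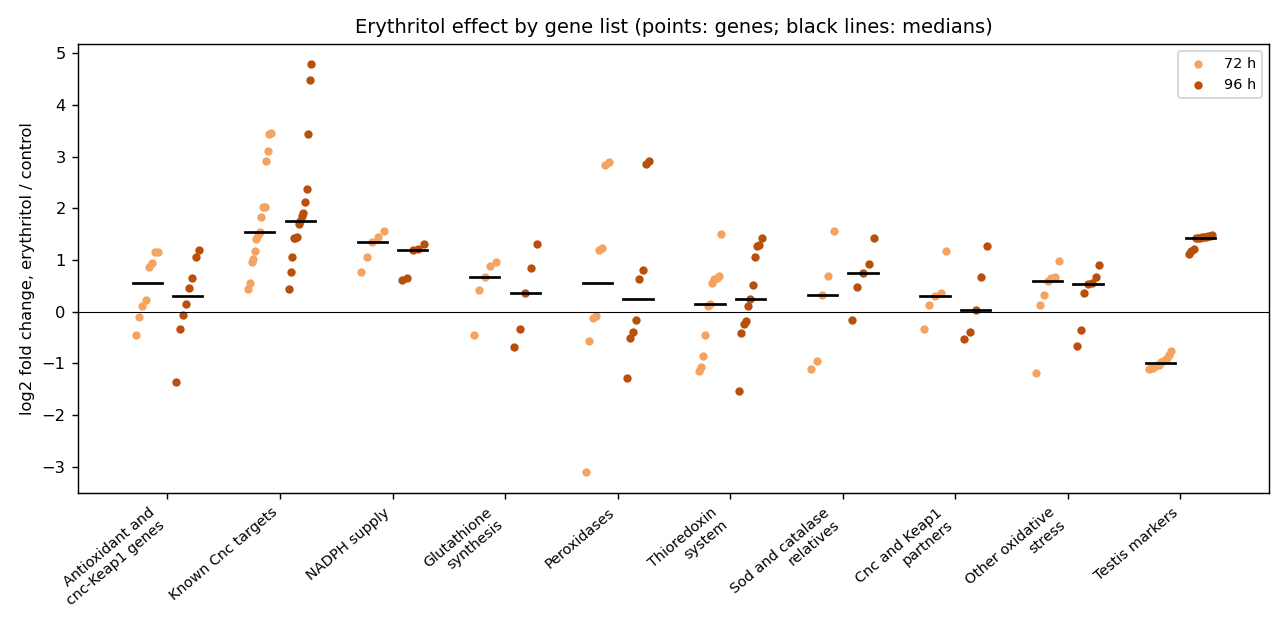
Log2FC of erythritol-fed against control flies (vertical axis) by gene list at 72 h (light) and 96 h (dark). Points are genes, black lines are medians, and testis markers stand at the right. The CncC targets and the genes of NADPH supply lie above 0 at both times, the 8 antioxidant and *cnc*-*Keap1* genes lie on both sides of 0, and the 12 testis markers lie below 0 at 72 h and above 0 at 96 h.

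Markers of other tissues also moved between the groups. All 10 follicle cell markers were lower in T96h vs. CK96h. In T72h vs. CK72h 9 of 10 were lower and *Cp18* was higher (0.89, adjusted p = 7.59e-15). Summed levels of the 10 markers were 3733 to 3847 CPM in CK72h, 485 to 524 in T72h, 7128 to 8100.3 in CK96h and 4.13 to 4.62 in T96h, with *Vm32E* at 0 in all 3 T72h libraries. The group means of *Sod3* had the same order, CK96h, CK72h, T72h and T96h, as did the summed levels of 8 fat body markers, at 19493 ± 2021, 8305 ± 46.2, 2681 ± 113 and 2195 ± 47.2 CPM. Most of this sum in CK96h came from the yolk protein genes *Yp1* (4748 ± 606 CPM), *Yp2* (7792 ± 1120) and *Yp3* (3962 ± 351). Of these 8 markers, 6 were lower and 1 higher at 72 h, and 6 were lower and 2 higher at 96 h. *Apoltp* was higher at both times (1.35 and 0.30), and *FASN2* had log2FC values of 0.00333 and 0.70, so that the order of the sum was not that of every marker. Summed levels of 8 midgut markers were 15687 ± 129 CPM in CK72h, 7741 ± 548 in T72h, 16176 ± 1649.7 in CK96h and 6009.9 ± 6.90 in T96h, and thus lower with erythritol. Of these 8 markers, 6 were lower and 2 higher at 72 h, against 7 and 1 at 96 h. *Amy-p* was higher at both times (0.66 and 0.66) and *LManII* at 72 h only (0.71, against -0.64 at 96 h). The summed levels of 6 hemocyte markers were 533 ± 3.87, 1023 ± 41.6, 968 ± 38.7 and 898 ± 8.19 CPM, and those of 7 muscle markers 2712 ± 10.6, 3652 ± 27.4, 1603 ± 15.0 and 1895 ± 12.2 CPM, in CK72h, T72h, CK96h and T96h. All 6 hemocyte markers were higher at 72 h, against 2 higher and 3 lower at 96 h. Of the 7 muscle markers, 4 were higher and none lower at 72 h, against 3 higher and 3 lower at 96 h. The part of these tissues in the values of the 8 genes was not tested. Since the sex of the pooled flies is not given, the shares of males and females in each group are not known, and a difference in these shares cannot be told apart from the effect of diet or time. Leaving the follicle cell, germline and testis markers out of the scaling changed no call among the 8 genes.

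The genes whose profiles over the 12 libraries lay closest to each of the 8 were found by the root mean square distance of centred log2 CPM, among 7077 genes whose mean log2 CPM was 4 or more. *Cat* was closest to *kumpel* (distance 0.0586) and *Gclc* (0.0607), and *Gclc* was closest to the gene FBgn0019886 (0.0438) and then *Cat*. *Gclm* was closest to *Pgd* (0.0598), the 6-phosphogluconate dehydrogenase of the pentose phosphate pathway, and *Ifrd1* (0.0605). *cnc* was closest to *l(1)G0289* (0.0358) and *EDTP* (0.0427), and *Keap1* to *Mtmr6* (0.0702) and FBgn0031376 (0.0726). *Sod1* lay closest to *snama* (0.0370) and *CG12159* (0.0395), *Sod2* to *ATPsynE* (0.0423), a subunit gene of the mitochondrial ATP synthase, and *CAH7* (0.0482), and *Sod3* to *Pisd* (0.0375) and *gwl* (0.0488). With only 4 groups behind the 12 libraries, a small distance says no more than that the 4 group levels were alike.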

How the data were processed

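PolyA RNA of whole flies was measured in 12 libraries (CK72h, CK96h, T72h and T96h, 3 each). Per the methods, the authors trimmed and filtered the reads by quality, used HISAT2 for alignment to fly genome release 6 and deposited counts per gene, all libraries in 1 table. The submitters' processing notes also name CASAVA 1.8. Which tool made the counts, and whether it used strand, is not given in the sources used here. Symbols, positions and exon lengths came from a reference annotation of release 6, which may differ from the authors' annotation in single genes.

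The deposited counts were tested with edgeR 4.0.16 in R 4.3.3 (filterByExpr, TMM, glmQLFit and glmQLFTest, 2-sided, 1 fit over 4 groups) on 13179 of 17707 genes. The common dispersion was 0.00165, a coefficient of variation of 4.06%. Since permuting 3 against 3 libraries exactly gives p-values of 0.1 or more, the p-values rest on the fit across all genes. The fit was tested on simulated data. Pairs of replicates differed by more than sampling noise (chi-square per degree of freedom 1.77 to 63.5). The highest values were those of T72h replicate 3, at 63.5 against replicate 1 and 25.0 against replicate 2. All other pairs stood at 13.5 or less. DESeq2 1.42.0, limma 3.58.1 (voom), other scalings, filters, a replicate block and leaving out each library were the alternatives.

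The 8 genes and all lists were chosen with earlier results of these data known. Besides the 8 genes, the text names from each list the genes with the smallest adjusted p at 72 h and at 96 h and the gene with the highest mean level, *GstD1*, and the 2 nearest profiles of each of the 8 genes. Further genes (*GstD4*, *Cyp12d1-p*, *Cyp12d1-d*, *maf-S*, *Cul3*, *Zw*, *Gss1*, *Gss2*, *Prx5*, *Prx6b*, *TrxT*, *Trxr2*, *Grx1t*, *DJ-1alpha*, *moody*, *grk*, *exu*, *Vm32E*, *Cp18*, *Yp1*, *Yp2*, *Yp3*, *Apoltp*, *FASN2*, *Amy-p*, *LManII*, *Irk1* and *fzo*) were named after their values were seen. Genome sequence was not used here, so promoters were not searched.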

Additional observations from a re-analysis of the deposited data

Results flagged for a closer look

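Groups of 3 libraries were not tested for a single outlying library. The erythritol effect at 96 h differed from that at 72 h, by the test of the difference itself (edgeR's quasi-likelihood test, adjusted p in parentheses), for 5 of the 8 genes, beside 78.9% of all genes tested. On the log2 scale, as 96 h minus 72 h, the difference was -0.90 for *Sod3* (9.27e-14), -0.73 for *cnc* (8.70e-13), -0.58 for *Sod2* (2.88e-10), -0.28 for *Gclm* (3.95e-05) and 0.34 for *Keap1* (0.00284). *Sod2* was the only one of the 8 genes with calls in opposite directions at the times under TMM, with 0.23 at 72 h and -0.35 at 96 h.

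Among the named genes of the lists, the effect was lower at 96 h for *dhd* by 1.09 (difference -1.09, 4.15e-13). The difference was -0.63 for *Irc* (3.09e-11), -0.61 for *Prx2* (5.13e-10), -0.53 for *Cth* (6.45e-09) and -0.42 for *Sesn* (2.09e-08). It was -0.32 for *Pink1* (2.91e-06), -0.26 for *Men-b* (6.58e-05), -0.23 for *Men* (0.000421) and -0.22 for *Ggt-1* (0.000308). With library totals the calls of *Sesn* (-0.10, adjusted p = 0.178) and *Pink1* (-0.00662, adjusted p = 0.940) were lost and those of *Men-b*, *Men* and *Ggt-1* turned direction without passing, and with upper-quartile factors the calls of *Men-b* (-0.06, adjusted p = 0.277), *Men* (-0.04, adjusted p = 0.557) and *Ggt-1* (-0.02, adjusted p = 0.662) were lost. For *CatB* it was 2.54 (1.77e-22), with calls in opposite directions at 72 h and 96 h, as in the 12 testis markers.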

How the results depend on the processing

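Of 912 log2 fold changes of the 8 genes under alternatives, 868 kept their direction and their side of the threshold. *Cat*, *Gclc*, *Gclm*, *cnc* and *Sod3* kept both erythritol calls under every alternative run. Upper-quartile factors and library totals moved the split of calls over all genes from 47.0% higher to 38.0% and 28.9% at 72 h, from 39.4% to 49.5% and 58.9% for the difference of the effects, and from 57.4% to 46.8% and 44.7% for CK96h vs. CK72h, and library totals and DESeq2's size factors (RLE) moved it from 49.5% to 71.7% and 37.6% for T96h vs. T72h. Directions turned with library totals for the difference of the effects of *Gclc* (0.23), *Gclm* (0.0301), *Ggt-1* (0.0895), *Men* (0.0785) and *Men-b* (0.0523), for *Gclm* in T96h vs. T72h (0.0997), *Keap1* at 72 h (-0.14), *Sod1* in CK96h vs. CK72h (-0.0807) and *Sod2* at 72 h (-0.0217). With upper-quartile factors they turned for the difference of *Gclc* (0.11), *Gclm* in T96h vs. T72h (0.00777), *Keap1* at 72 h (-0.0102), *Sod1* in CK96h vs. CK72h (-0.0579) and *Sod1* at 96 h (0.0126). Leaving out 1 library turned the difference of *Cat* (-0.00449 to 0.0669, lowest without CK96h replicate 3), *Keap1* in CK96h vs. CK72h (-0.12 to 0.0315, highest without CK96h replicate 2) and *Sod1* at 96 h (-0.0770 to 0.0513, highest without T72h replicate 3), all of them values that had not passed. Of the 8 genes, 5 were higher in CK96h vs. CK72h, but 3 when scaled by upper-quartile factors and 2 by library totals. The effect was higher at 96 h for 1 gene, but for 4 under either of these scalings. In T96h vs. T72h 2 genes were higher, but 1 with RLE factors and 1 with DESeq2, and 5 were lower, but 3 with library totals and 6 with RLE factors or DESeq2. Upper-quartile factors and library totals also took the call of *Sod2* in CK96h vs. CK72h (0.0321 and 0.00964) and gave calls to *Keap1* there (-0.19 and -0.21) and to the difference of *Sod1* (0.25 and 0.36), and library totals took that of *Gclm* in CK96h vs. CK72h (0.0696). At 72 h 2 genes were lower, but 1, without *Sod1*, with RLE factors, with DESeq2 and with only the 6 libraries compared, and 1 to 2 when a library was left out. The cause was not tested. The replicate numbers did not pair the libraries (correlation of deviations from -0.0430 to 0.0760 over 18 pairs with the same number), and a replicate block changed no call among the 8 genes and moved the calls at 72 h from 10453 to 10482 genes and at 96 h from 10477 to 10512. Precision was lowest for *Keap1*, with 314 to 523 counts a library.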
